A study of Bos taurus with 81 samples.

Results

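The morula-only H3K27ac sites were 16089 bins of 1 kb out of 2488055 bins on the 29 bovine autosomes. They were chosen from the H3K27ac peak lists: a bin was marked in a list where peaks covered at least 50% of it, and a morula-only bin was marked in both morula lists and in none of the 16 lists of the other groups. These bins were 0.647% of all autosomal bins and 18.3% of the 87957 bins marked in both morula lists. Without morula replicate 2 the same rule gave 24171 bins, and without morula replicate 1 it gave 29902, so the requirement for both lists set much of the number. H3K27ac chose the bins, and its values below are a description only.

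H3K27ac is laid down by histone acetyltransferases of the CBP and p300 family and is known as a mark of active promoters and enhancers. H3K4me3 is typical of promoters, H3K27me3 is written by Polycomb repressive complex 2 over silenced developmental genes, and H3K9me3 is typical of heterochromatin and repeats. The morula is the compacting embryo that follows the main activation of the bovine embryonic genome, and its cells next separate into the inner cell mass and the trophectoderm of the blastocyst.

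The study profiled bovine oocytes and in vitro produced embryos by CUT&Tag, in which an antibody against a histone mark brings a transposase to the marked chromatin, and by ATAC-seq, which tags open chromatin. Oocytes came from slaughterhouse ovaries and were fertilised with thawed semen. The groups were germinal vesicle oocytes taken before maturation (GV), embryos of the 2-cell stage at 32 h after insemination (2C), the 4-cell stage at 44 h (4C) and the 8-cell stage at 56 h without (8C) or with 50 µg/ml of the transcription inhibitor α-amanitin (8A), morulae at 122 h (MO) and blastocysts at 172 h (BL). The last groups were the inner cell mass (ICM), freed from blastocysts by immunosurgery, and the trophectoderm (TE), cut from blastocysts with a micro scalpel. Every group of the 9 was profiled in 2 libraries per histone mark, and ATAC-seq was done on BL, ICM and TE in 3 libraries each. A library held about 500 oocytes or 1000 to 1500 blastomeres, pooled, so a mark in fewer cells and a weaker mark in every cell cannot be told apart. Nothing in the labels says that libraries of a group came from separate collections, so the spread between them may be technical.

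The lists held 7654 to 178845 peaks, and their covered length was 43.4 to 141.8 Mb for H3K27ac. Sequencing depth was unknown, because the lists give no read totals, so list length may differ with depth as well as with the mark. With 2 libraries against 2, the smallest exact two-sided permutation p would be 0.333, and no test was made over bins chosen with earlier results known. Differences between groups are therefore given with the spread between libraries. A bin was called marked in a group where it was marked in every library of that group.

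Most of the chosen bins had no H3K27ac peak of another group on them at all. No base of 9796 bins (60.9%) was covered in any of the 16 other lists. A further 1427 bins had fewer than 250 covered bases in the other list that covered most of them, 3494 had at least 250 and fewer than 450, and 1372 stood just inside the limit at 450. Just outside stood 1702 morula bins at exactly 500 covered bases in another list. At the other limit, 2750 of the chosen bins had exactly 500 covered bases in the lower of the morula lists, and 3283 bins with 450 were left out. H3K27ac peaks touched 15.3% and 12.9% of the morula-only bins in the ICM lists, 6.92% and 9.56% in the BL lists, 5.79% and 6.04% in the TE lists, and 4.27% and 3.82% in the 8C lists. The ICM lists were also longer: peaks touched 6.37% and 5.91% of all bins in ICM, 3.61% and 4.06% in BL, 4.11% and 4.30% in TE, and 6.14% and 6.23% in 8C. The label thus holds at the limit of 50% for every bin by construction, and with no covered base elsewhere for about 6 bins in 10.

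**Figure D1:**
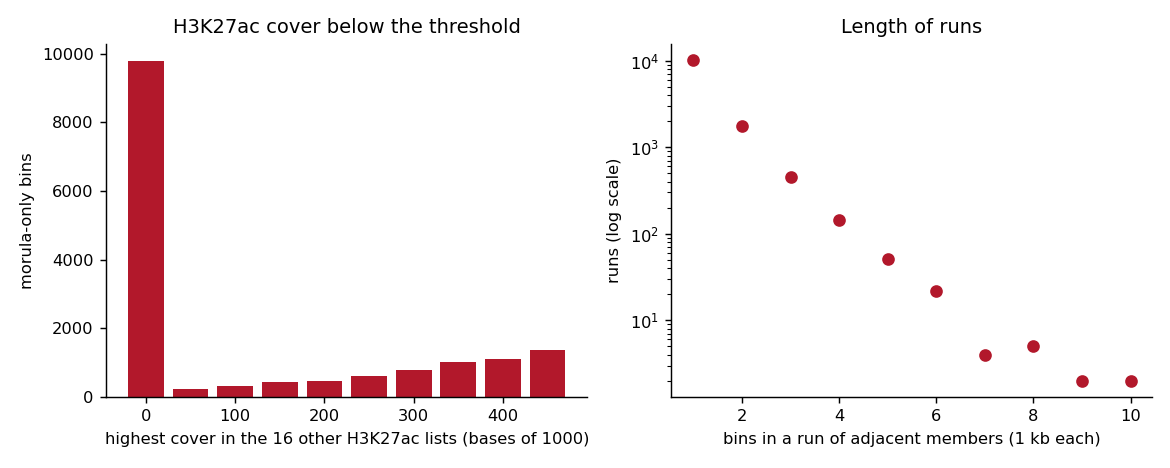
Left, number of morula-only bins by the highest number of bases of the 1000 in a bin that any of the 16 other H3K27ac lists covered; right, number of runs of adjacent morula-only bins by the run's length in bins of 1 kb, on a log scale. Most bins (9796) stand at 0 covered bases, 1372 stand at the limit of 450, and the longest 2 runs hold 10 bins.

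Before both morula lists were required, agreement between the morula libraries was lower for bins unmarked in other groups than for other morula H3K27ac. Of the 24171 bins marked in morula replicate 1 and in no list of another group, 66.6% were also marked in replicate 2. Of the 29902 such bins of replicate 2, 53.8% were also marked in replicate 1. For bins that some other group's list marked, the shares were 81.0% and 81.6%, and 4.74% and 4.54% of all bins were marked. Bins unmarked elsewhere were thus shared less fully between the morula lists than H3K27ac that other stages carried too. The values for all bins include bins marked in other groups. The rule used these same lists, so the shares are a description only.

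The peaks that held the bins had a median width of 900 bases in morula replicate 1 and 1150 in replicate 2. Their median rank by the authors' peak score was the 72.7th and 69.7th percentile within each list. The rule asks for 500 covered bases in a bin, which narrow peaks cannot give, and what the score measures was not established, so neither value says how strong these peaks were. Both morula peaks on 7978 of the bins (49.6%) touched no peak of any other H3K27ac list, whereas those on the other 8111 also reached a peak of another group.

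The sites were mostly short and scattered. Adjacent bins formed 12593 runs, of which 10164 were single bins, 1742 held 2 bins, 652 held 3 to 5 and 35 held 6 or more. The median distance from a bin to the nearest bin marked in both lists of another group was shortest for ICM, at 20 kb, followed by GV at 28 kb, BL at 37 kb, 8C at 39 kb, 8A at 45 kb, TE at 50 kb, 2C at 97 kb and 4C at 136 kb. A group with more marked bins tends to give shorter distances, and GV had 101428 such bins, ICM 79935 and TE 47120. By chromosome, the number ran from 4.61 bins per Mb on chromosome 6 to 9.35 on chromosome 19, with 6.47 over all autosomes. As a share of the morula H3K27ac bins, it ran from 11.8% on chromosome 25 to 24.3% on chromosome 20. The first 2 Mb and the last 2 Mb of the chromosomes held no excess, with 0.569% and 0.560% of their bins chosen against 0.651% elsewhere. The densest windows of 1 Mb lay on chromosome 1 from 68000001 to 69000000, where 50 of 78 morula bins were morula-only, and on chromosome 16 from 2000001 to 3000000, where 50 of 174 were. On chromosome 8 from 105000001 to 106000000, 42 of 60 morula bins were morula-only.

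Among the other marks, the clearest pattern was repressive cover at the cleavage stages that was missing in the morula lists. At 8C, H3K27me3 marked 12.7% and 13.4% of the morula-only bins in the 2 libraries, against 5.50% and 5.61% of all autosomal bins. At MO, it marked 1.65% and 1.40%, against 6.56% and 6.00% of all bins. The morula-only bins therefore stood at 2.35 times the level of all bins at 8C and at 0.243 times at MO. Their mean was 13.1% ± 0.457 (SD, n = 2) at 8C and 1.53% ± 0.180 (SD, n = 2) at MO, a difference of -11.5 points with a combined SD of 0.491. Over all autosomal bins the same difference was 0.722 points with a combined SD of 0.399, in the other direction. All bins marked in both morula H3K27ac lists had means of 10.6% at 8C and 2.06% at MO. The morula-only bins were chosen for H3K27ac at MO, so their H3K27me3 share at MO is not independent of the rule. The rule also removed bins with H3K27ac from GV to 8A, so repressive shares at those stages are not independent of it either. Morula bins with H3K27ac in an earlier list and in no BL, ICM or TE list had lower means at 8C. Those were 4.25% for H3K27me3 and 5.83% for H3K9me3.

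H3K9me3 gave the same order at 8C and MO, and at MO it stood near the level of all bins. At 8C it marked 16.5% and 16.7% of the morula-only bins, against 6.76% and 6.73% of all bins. At MO it marked 4.77% and 6.60%, against 4.58% and 5.76% of all bins. The means were 16.6% ± 0.114 (SD, n = 2) and 5.69% ± 1.29 (SD, n = 2), and the difference of -10.9 points had a combined SD of 1.30. All bins differed by -1.57 points with a combined SD of 0.837. The morula-only bins were thus at 2.47 times the level of all bins at 8C and at 1.10 times at MO. With any covered base as the limit and the bins chosen anew, the mean share at MO was 5.24%, below the 5.76% of all bins.

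The same order was seen at morula sites that kept H3K27ac. A set of 27144 morula bins with no H3K27ac in an earlier list but with it in a BL, ICM or TE list was added for comparison after the data had been seen. Its mean H3K27me3 share was 18.4% at 8C and 1.09% at MO, and its mean H3K9me3 share was 24.1% at 8C and 4.14% at MO. The bins that kept H3K27ac had higher repressive shares at 8C than the morula-only bins, and lower ones at MO.

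Up to 8A, the share of the morula-only bins was above that of all bins from the oocyte onwards for H3K9me3 and from the 2-cell stage onwards for H3K27me3. These are shares at each stage, and the bins marked at 8C were not followed back as a set. For H3K9me3, the mean share of the morula-only bins was 19.1% ± 0.334 at GV, 13.5% ± 0.185 at 2C and 17.0% ± 0.923 at 4C (SD, n = 2 each), and all bins stood at 7.51%, 5.09% and 6.84%. For H3K27me3 it was 9.40% ± 0.0835 at GV, close to the 9.55% of all bins, then 10.7% ± 1.45 at 2C and 15.0% ± 0.804 at 4C (SD, n = 2 each), where all bins stood at 4.84% and 6.03%. H3K27me3 over these bins was thus at the level of all bins in the oocyte and above it at each cleavage stage. In both lists of a group, H3K27me3 marked 1312 bins at 2C (8.15%, background 3.41%), 1917 at 4C (11.9%, background 4.56%) and 1792 at 8A (11.1%, background 4.7%). H3K9me3 marked 1654 at 2C (10.3%, background 3.75%), 2247 at 4C (14.0%, background 5.39%) and 2301 at 8A (14.3%, background 5.89%). All of these counts were above their backgrounds. With α-amanitin at the 8-cell stage, the shares per library were 13.6% and 14.3% for H3K27me3 and 17.4% and 17.0% for H3K9me3. Every one of these values lay above the corresponding 8C values, by less than 1 point on average for each mark. All bins also stood higher at 8A, at means of 5.98% for H3K27me3 and 7.24% for H3K9me3, and the ratio of the morula-only bins to all bins was 2.33 and 2.37, no higher than at 8C. The bins with new H3K27ac that was kept had H3K9me3 means of 26.1% at GV, 21.2% at 2C and 25.0% at 4C. Their H3K27me3 means were 7.38% at GV, 14.5% at 2C and 21.6% at 4C. High repressive shares at the cleavage stages were thus not particular to the morula-only bins.

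**Figure D2:**
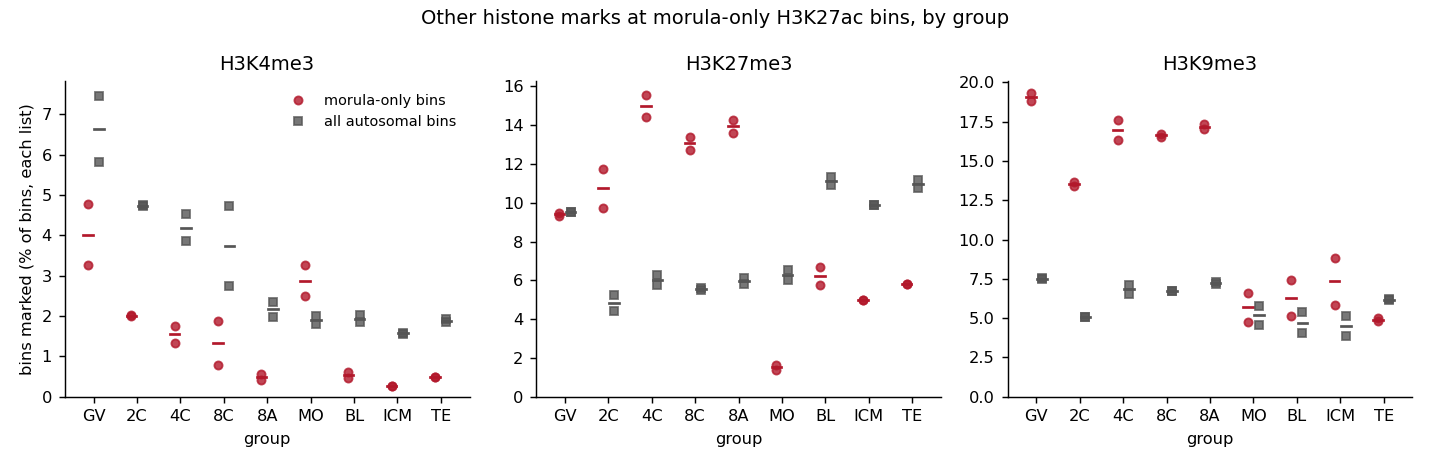
Percent of bins marked by H3K4me3, H3K27me3 and H3K9me3 in each of the 9 groups; each point is 1 library, bars are means of 2 libraries, circles are morula-only H3K27ac bins and squares all autosomal bins. H3K27me3 and H3K9me3 on the morula-only bins stand above all bins from 2C to 8A, and H3K27me3 at MO is at 1.65% and 1.40%.

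H3K4me3, the promoter mark, went the other way on a small scale. At 8C it marked 0.796% and 1.88% of the morula-only bins, below the 2.75% and 4.72% of all bins. At MO it marked 2.50% and 3.26%, above the 1.796% and 1.992% of all bins. The difference was 1.54 points with a combined SD of 0.940, and all bins differed by -1.84 points with a combined SD of 1.39. The difference of the morula-only bins kept its sign in every alternative run but was not always larger than this SD. It was 0.846 points with any covered base as the limit, 0.814 without H3K27ac MO replicate 1, 0.998 without H3K4me3 8C replicate 1, and 4.30 with lists shortened to the shortest of their assay. With any covered base, the share at MO was 2.02%, below the 2.78% of all bins. In the 27144 bins with new H3K27ac that was kept, H3K4me3 went from 2.99% to 14.8%. The share with H3K4me3 at MO was thus far lower at morula-only H3K27ac than at new H3K27ac that lasted. In both lists H3K4me3 marked 400 bins at GV (2.49%, background 4.79%), 172 at 2C (1.07%, background 3.44%), 123 at 4C (0.764%, background 3.04%) and 106 at 8C (0.659%, background 2.54%), each below its background. With α-amanitin 36 bins had it in both lists (0.224%, background 1.54%). The rule had removed bins with H3K27ac at these stages, so neither the low early shares nor the difference between 8C and MO is independent of it. All bins marked in both morula H3K27ac lists had mean H3K4me3 shares of 22.9% at 8C and 29.1% at MO.

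Counted bin by bin, 1666 morula-only bins (10.4%) were marked by H3K27me3 in both 8C lists, where the background over all autosomal bins was 4.31%. Of these, 1526 (91.6%) were marked in neither MO list, 9.48% of the morula-only bins against 2.98% of all bins. Among all autosomal bins with H3K27me3 in both 8C lists, 69.2% were in neither MO list, and among all morula H3K27ac bins 91.7% were. H3K9me3 marked 2227 bins (13.8%) in both 8C lists, with a background of 5.42%, and 2038 of them (91.5%) were in neither MO list. The reverse order of H3K27me3 was rare, with 69 bins marked in both MO lists and neither 8C list (0.429%, background 3.75%). The 2038 bins were 12.7% of the morula-only bins against 3.88% of all bins. For H3K9me3 the corresponding shares without it at MO were 71.5% of all bins and 93.0% of morula H3K27ac bins. The share without 8C repressive cover at MO was therefore close to that of all morula H3K27ac bins.

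The repressive marks largely sat on the same bins at 8C. Both marked 1505 bins, which was 90.3% of the bins with H3K27me3 and 67.6% of those with H3K9me3. Over all autosomal bins the shares were 86.5% and 68.8%, so the overlap at 8C was similar over the whole genome. In GV oocytes 167 bins carried both, 14.2% of those with H3K27me3 and 6.53% of those with H3K9me3, and over all autosomal bins these overlaps were 5.79% and 7.24%. H3K27me3 marked 1178 bins in both GV lists (7.32%, background 7.28%) and H3K9me3 marked 2556 (15.9%, background 5.82%).

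At MO, few of the bins carried any of these marks. H3K27me3 marked 171 bins (1.06%, background 5.26%), H3K4me3 marked 296 (1.84%, background 1.65%) and H3K9me3 marked 691 (4.29%, background 3.99%) in both lists. No other mark in both lists covered 15044 bins (93.5%, against 91.0% of all bins). H3K4me3 with H3K9me3, without H3K27me3, was rare, on 41 bins, 0.255% of the morula-only bins against 0.023% of all bins. Of the 691 bins with H3K9me3 at MO, 571 (82.6%) had it in neither 8C list, so most bins with H3K9me3 at MO were not those that had it at 8C. These 571 bins were 3.55% of the morula-only bins, with a background of 2.56%. Of all autosomal bins with H3K9me3 in both MO lists, 64.1% had it in neither 8C list. Of all morula H3K27ac bins with it, 79.4% did, close to the share of the morula-only bins.

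The difference in repressive cover was largest at the bins themselves within the 25 kb examined on each side. At 8C, H3K27me3 covered 13.0% of bases in the bins, 11.4% at 5 kb upstream and 9.61% at 25 kb upstream. At MO it covered 1.51% in the bins, 2.32% at 5 kb and 4.30% at 25 kb. A peak of cover at 8C thus faced a trough at MO. H3K9me3 at 8C went from 12.1% at 25 kb to 16.6% in the bins, and at MO from 4.35% to 5.62%. H3K4me3 at 8C had a trough, with 1.41% in the bins and 3.53% at 25 kb. At MO the H3K4me3 trough was narrower, with 2.93% in the bins, 3.58% at 1 kb and 3.93% at 5 kb, above the 2.68% at 25 kb. Upstream means lower coordinates, since a bin has no strand.

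**Figure D3:**
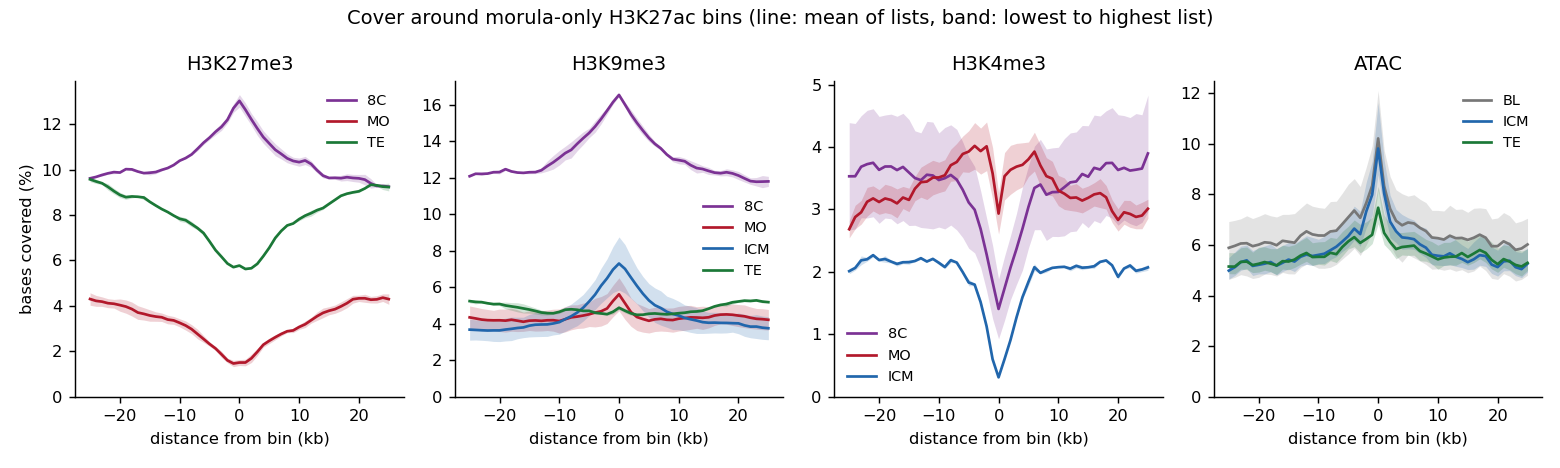
Percent of bases covered by each mark at distances of up to 25 kb from the morula-only H3K27ac bins; lines are means of the libraries of a group and bands run from the lowest to the highest library. H3K27me3 peaks at the bins at 8C (13.0%) and has its trough there at MO (1.51%), and H3K9me3 in ICM peaks at 7.31%.

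In the blastocyst and its parts, most morula-only bins were not marked, at the limit of 50%, by ATAC or by any of the 3 other histone marks. Of the 16089 bins, 5984 (37.2%) were marked in at least 1 of the 27 ATAC, H3K4me3, H3K27me3 and H3K9me3 lists of BL, ICM and TE, with a background of 23.9%. The other 10105 (62.8%) were marked in none, against 76.1% of all bins and 24.4% of the bins with new H3K27ac that was kept. Bins without a single covered base in any list of BL, ICM and TE, H3K27ac included, were fewer, at 5954 (37.0%, against 68.9% of all bins). ATAC accounted for the most, with 3776 bins (23.5%, background 7.11%) open in at least 1 list. H3K27me3 or H3K9me3 marked 3241 (20.1%, background 18.3%) and H3K4me3 marked 144 (0.895%, background 2.55%). The morula-only bins thus stood between the genome as a whole and lasting H3K27ac sites in the share that any of these assays marked.

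Open chromatin lay above the level of all bins. In BL, 5.80%, 9.75% and 10.6% of the morula-only bins were open in the 3 ATAC libraries, against 2.84%, 4.05% and 4.43% of all bins. In ICM the values were 6.37%, 11.8% and 6.72%, against 2.92%, 3.90% and 2.89%. In TE they were 6.52%, 8.45% and 6.18%, against 3.31%, 3.99% and 3.08%. The share was higher than that of all bins in each of the 9 libraries, with ratios of the means of 2.31 in BL, 2.56 in ICM and 2.04 in TE. The means of ICM and TE, 8.30% ± 3.06 and 7.05% ± 1.23 (SD, n = 3 each), differed by 1.25 points with a combined SD of 3.29, which is less than the spread. Over all bins the means were 3.24% in ICM and 3.46% in TE, in the other order and also within the spread. Lasting new H3K27ac bins were open far more often, at means of 44.0% in BL, 42.1% in ICM and 39.5% in TE, but those bins were chosen for H3K27ac in these very tissues.

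A bin of 1 kb can hold a narrower open site, so any covered base was also counted. By that count ATAC peaks touched 23.5%, 24.3% and 24.0% of the morula-only bins in ICM and 15.9%, 17.33% and 17.96% in TE, with no overlap between the groups. All bins were touched at 7.18%, 7.23% and 7.09% in ICM and 6.56%, 7.16% and 6.99% in TE. All bins marked in both morula H3K27ac lists were touched at 60.9%, 62.1% and 61.5% in ICM and 52.5%, 54.8% and 54.8% in TE. The order of ICM above TE was thus not particular to the morula-only bins. Most of the morula-only bins that ATAC peaks touched in ICM were covered over less than 50% of their length. Around the bins, ATAC cover in ICM was 9.82% in the bin, 7.99% at 1 kb and 4.99% at 25 kb, and in TE it was 7.48%, 6.41% and 5.15%.

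Bins open in every library of a group numbered 555 in BL (3.45%, background 2.35%), 596 in ICM (3.70%, background 2.21%) and 549 in TE (3.41%, background 2.31%). Of them, 274 were open in every ICM library and no TE library (1.70%, background 0.334%), and 189 in every TE library and no ICM library (1.17%, background 0.42%). Both kinds were above their backgrounds, so open bins were found in each tissue without the other. The counts moved with the limit: bins open in every ICM and every TE library were 1.73% each at 80% of a bin covered, where all bins stood at 0.902% and 0.958%. With any covered base they were 9.34% and 5.63%, against 5.52% and 5.22% of all bins, and with shortened lists 11.4% and 5.67%, against 2.15% and 2.20%.

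For the histone marks the same count differed by mark. H3K4me3 was in both ICM lists and no TE list on 6 bins (0.0373%, background 0.091%), and in both TE lists and no ICM list on 22 (0.137%, background 0.287%). H3K27me3 was in both ICM lists and no TE list on 262 bins (1.63%, background 1.12%), and the reverse held for 352 (2.19%, background 1.88%). Both H3K27me3 counts were somewhat above their backgrounds. By contrast, H3K27me3 in both lists of a tissue was below its background, in ICM (3.95%, background 8.58%) and in TE (4.73%, background 9.62%).

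H3K4me3 was nearly absent after the morula. It marked 0.472% and 0.603% of the bins in BL, 0.280% and 0.267% in ICM and 0.479% in each TE library. All bins stood at 1.86% and 2.02% in BL, 1.56% and 1.59% in ICM and 1.93% and 1.85% in TE. In both lists it marked 67 bins in BL (0.416%, background 1.73%), 25 in ICM (0.155%, background 1.37%) and 55 in TE (0.342%, background 1.64%). Of the 296 bins with H3K4me3 at MO, 214 had it in neither 8C list (1.33% of the morula-only bins, background 0.341%). Later, 49 had it in both BL lists, 20 in both ICM lists and 43 in both TE lists. Those were 16.6%, 6.76% and 14.5%, whereas of all autosomal bins with H3K4me3 at MO 77.9% had it in BL and 71.6% in ICM. The rule had removed bins with later H3K27ac, so this comparison is not independent of it.

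H3K27me3 stood below the level of all bins, at values that depended on list length. It marked 6.71% and 5.77% of the bins in BL, 4.98% and 5.01% in ICM and 5.82% in each TE library. All bins stood at 10.9% and 11.3% in BL, 9.87% and 9.89% in ICM and 10.8% and 11.2% in TE. The shares of the morula-only bins were above the MO values in every library. With all H3K27me3 lists shortened to equal length and the bins chosen anew, the means were 1.02% at MO, 1.76% in BL, 1.59% in ICM and 1.69% in TE, with all bins at 4.42% in each. They were then still above MO, by less than 1 point. In lasting new H3K27ac bins the means were 1.25% in BL, 0.978% in ICM and 1.36% in TE. Bin by bin, H3K27me3 marked both lists on 790 bins in BL (4.91%, background 9.66%), 635 in ICM (3.95%, background 8.58%) and 761 in TE (4.73%, background 9.62%). Of the 1666 bins with H3K27me3 at 8C, 289 (17.3%) had it in both BL lists, 156 (9.36%) in both ICM lists and 285 (17.1%) in both TE lists. Of all autosomal bins with H3K27me3 at 8C, 35.0%, 26.9% and 35.1% did, although 25.3% of those had it in both MO lists as well. Of all morula H3K27ac bins with H3K27me3 at 8C, 9.08%, 6.12% and 9.20% did. The morula-only bins thus stood between these sets.

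Of the 3 other histone marks, only H3K9me3 had the inner cell mass and the trophectoderm in a different order on these bins than over all bins. In ICM it marked 5.87% and 8.81% of the morula-only bins, and in TE 5.00% and 4.82%. Over all bins the order was the reverse, with 3.88% and 5.13% in ICM and 6.16% and 6.20% in TE. The ICM libraries differed from each other, and the second had the longer list. The mean difference of 2.43 points, ICM above TE, had a combined SD of 2.09, so it was only slightly larger than the spread. All bins differed by -1.68 points with a combined SD of 0.880. With lists shortened to equal length and the bins chosen anew, the shares were 7.33% and 8.13% in ICM and 2.43% and 2.27% in TE, with all bins at 3.88% in both. Lasting new H3K27ac bins also had more H3K9me3 in ICM, 3.18% and 5.32%, than in TE, 1.49% and 1.37%. All bins marked in both morula H3K27ac lists had H3K9me3 at means of 4.99% in ICM and 3.01% in TE, so this order was not particular to the morula-only bins. In BL the morula-only bins stood at 5.11% and 7.45%, with all bins at 4.03% and 5.38%.

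Bin by bin, H3K9me3 marked both lists on 686 bins in BL (4.26%, background 3.45%), 829 in ICM (5.15%, background 3.11%) and 576 in TE (3.58%, background 4.89%). It was in both ICM lists and no TE list on 541 bins (3.36%, background 0.84%), and in both TE lists and no ICM list on 267 (1.66%, background 1.86%). The 691 bins that had H3K9me3 together with H3K27ac in the morula were kept unevenly: 429 of them (62.1%) had H3K9me3 in both ICM lists, 338 (48.9%) in both BL lists and 133 (19.2%) in both TE lists. Of all autosomal bins with H3K9me3 at MO, 44.8% had it in both ICM lists and 41.5% in both TE lists. Of all morula H3K27ac bins with H3K9me3 at MO, 59.3% and 20.9% did, so this asymmetry was shared by H3K27ac sites of the morula as a whole. Of the 41 bins with H3K4me3 and H3K9me3 at MO, 34 had H3K9me3 alone in ICM, and 33 had none of the marks in TE.

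**Figure D4:**
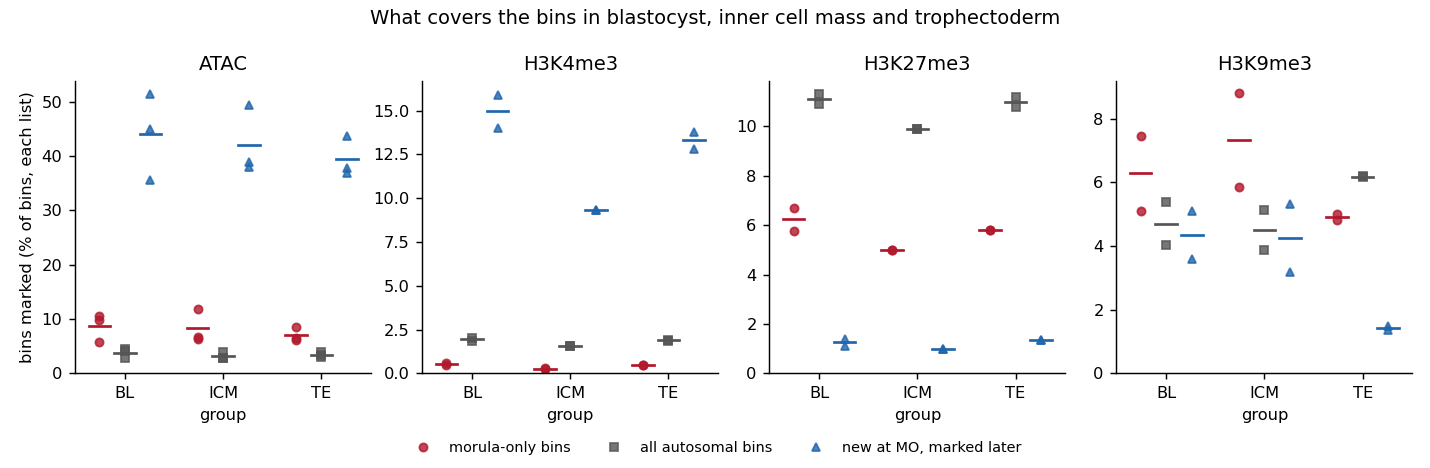
Percent of bins marked in BL, ICM and TE by ATAC, H3K4me3, H3K27me3 and H3K9me3; each point is 1 library, bars are group means, circles are morula-only bins, squares all autosomal bins and triangles bins with new morula H3K27ac that a BL, ICM or TE list also marks. H3K9me3 on morula-only bins is 5.87% and 8.81% in ICM and 5.00% and 4.82% in TE, while all bins are higher in TE.

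The bins differed among themselves by what had covered them at 8C. The 1475 bins with H3K27me3 and H3K9me3, but not H3K4me3, in both 8C lists had higher shares of later repressive cover in TE than in ICM. H3K27me3 marked 19.9% ± 0.0959 of them in TE and 10.2% ± 0.192 in ICM, and H3K9me3 marked 19.9% ± 1.10 in TE and 8.24% ± 2.64 in ICM (SD, n = 2 each). The order was that of the whole genome: of all autosomal bins with H3K27me3 in both 8C lists, 35.1% had it in both TE lists and 26.9% in both ICM lists, and for H3K9me3 the shares were 27.4% and 14.9%. For the 13632 bins with none of the 3 marks in both 8C lists, the order for H3K9me3 was the other way, with 2.80% ± 0.0363 in TE and 7.12% ± 1.97 in ICM (SD, n = 2 each). The H3K9me3 share was thus higher in TE on bins with both repressive marks at 8C, and higher in ICM on bins with none of the marks. On the 720 bins with H3K9me3 alone at 8C it was 6.32% ± 0.0982 in TE and 5.21% ± 2.06 in ICM (SD, n = 2 each), a difference within the spread. Of the 1475 bins with both marks, 39.2% were marked in no late list of the other assays.

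Longer runs had more repressive cover at 8C. In runs of 3 or more bins, H3K27me3 marked 20.0% ± 0.463 of 2441 bins and H3K9me3 23.8% ± 0.0579 (SD, n = 2 each). Among 10164 single bins the shares were 10.7% ± 0.250 and 14.1% ± 0.160 (SD, n = 2 each). ATAC in ICM went the other way, with 5.82% ± 2.52 of bins in long runs and 9.41% ± 3.26 of single bins (SD, n = 3 each), a difference within the spread. The 7978 bins whose morula peaks touched no peak of another group had ATAC in ICM at 6.82% ± 2.73 and the other 8111 at 9.77% ± 3.38 (SD, n = 3 each). For any covered base the values were 16.8% ± 0.333 and 31.0% ± 1.03 (SD, n = 3 each), so the share touched by open chromatin was higher for bins in peaks shared with other groups. H3K27me3 at 8C hardly differed between these kinds, at 12.8% ± 0.443 and 13.3% ± 0.471 (SD, n = 2 each).

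Distance to later H3K27ac went with repressive cover. Of the bins, 2198 were adjacent to a bin marked in both lists of BL, ICM or TE, and 4392 were over 50 kb from any such bin. H3K27me3 in TE marked 2.43% ± 0.0322 of the adjacent bins and 8.45% ± 0.354 of the far ones, and in ICM 2.32% and 8.13% ± 0.290 (SD, n = 2 each). H3K9me3 in TE marked 2.87% ± 0.0643 of the adjacent and 8.42% ± 0.0966 of the far bins. In ICM it marked 8.60% ± 2.19 of the adjacent and 11.4% ± 3.70 of the far bins (SD, n = 2 each), with lower values between these distances. The repressive marks in TE thus had their lowest shares beside or within 10 kb of H3K27ac of BL, ICM or TE, while H3K9me3 in ICM did not. The bins that distance was counted from need not have been marked at MO. Distance was counted from H3K27ac values that the rule also used, so these are descriptions.

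**Figure D5:**
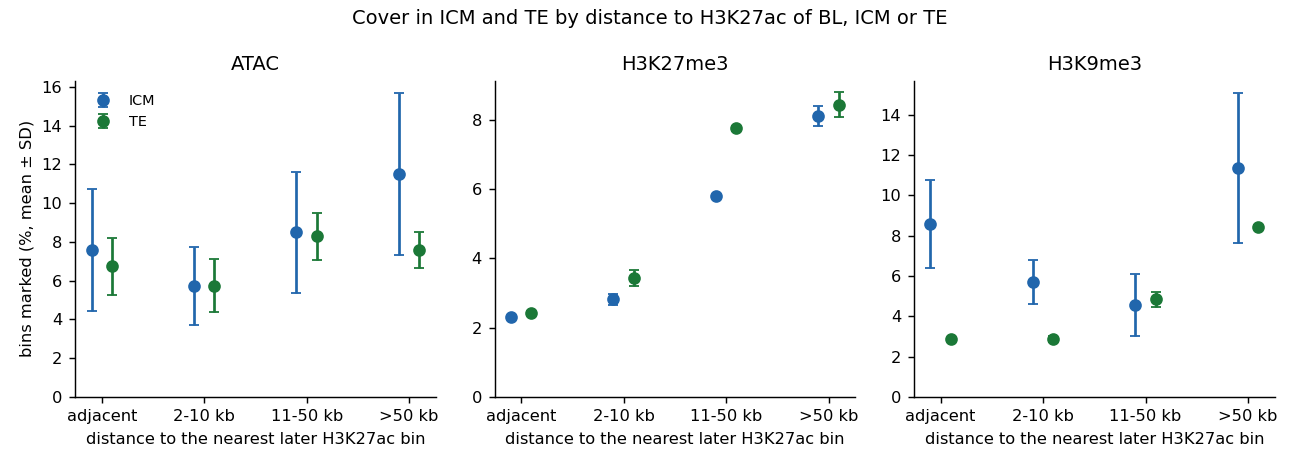
Percent of morula-only bins marked by ATAC, H3K27me3 and H3K9me3 in ICM and TE, by distance to the nearest bin with H3K27ac in both lists of BL, ICM or TE; points are means and bars SD over 2 libraries (3 for ATAC). H3K27me3 in TE goes from 2.43% of adjacent bins to 8.45% of bins over 50 kb away.

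The 10 longest runs showed several of these histories at single places. Coordinates are those of the ARS-UCD1.2 build, counted from 1, and the genes at these places were not analysed here. The 10 bins on chromosome 15 from 23963001 to 23973000 were all marked by H3K27me3 in every list from GV to 8A and by H3K9me3 in every list from 2C to 8A. At MO neither mark was on any of them. H3K27me3 was back on 10 and 6 of the bins in the BL lists, 3 and 0 in ICM, and 6 and 6 in TE. On chromosome 7 from 51082001 to 51089000, all 7 bins had H3K27me3 and H3K9me3 in both 8C lists and neither at MO, and H3K27me3 was on 7 and 7 bins in BL, on none in ICM and on 5 and 7 in TE. Both places thus had H3K27me3 again in whole blastocysts and trophectoderm, with little or none in the inner cell mass.

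Other runs had little or no repressive cover after the 8-cell stage, or had it in single libraries. On chromosome 28 from 27868001 to 27877000, all 9 bins had H3K27me3 and H3K9me3 in both 8C lists, and no list of MO, BL, ICM or TE had either. On chromosome 9 from 87359001 to 87367000, H3K9me3 marked 7 and 8 of 8 bins at 8C and none later, and H3K4me3 marked 2 bins in each MO list. On chromosome 2 from 117984001 to 117992000, none of the 8 bins had H3K27me3 or H3K9me3 in any list of any group. On chromosome 25 from 15610001 to 15618000, H3K9me3 marked 3 and 1 of 8 bins at 8C, and no repressive mark was on them from MO on. On chromosome 8 from 105847001 to 105857000, within a densest window, H3K9me3 marked 5 and 1 of 10 bins at 8C and none at MO, and the ICM lists disagreed with 10 and 1, while H3K27me3 marked 1 and 1 bins in BL and 2 and 1 in TE. The 8 bins on chromosome 6 from 105430001 to 105438000 had H3K9me3 on 3 bins in each MO list and on 3 and 2 in TE.

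A pair of runs on chromosome 27 carried a repressive mark in the inner cell mass. From 30893001 to 30902000, no list before MO had H3K27me3 or H3K9me3. H3K9me3 marked 2 and 5 of the 9 bins in the MO lists, 0 and 6 in BL and 8 and 9 in ICM, and none in TE. From 19491001 to 19499000, H3K27me3 was on none of the 8 bins through MO, on 5 and 4 in BL, on all 8 in both ICM lists and on none in TE, and H3K9me3 was on 0 and 5 in ICM. These runs were marked later in ICM and not in TE, opposite to the runs on chromosomes 15 and 7.

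Shorter runs were named as the longest of a state at MO, in ICM or in TE. On chromosome 6 from 4219001 to 4222000, all 3 bins had H3K4me3 and H3K9me3 beside H3K27ac in both MO lists, and H3K9me3 remained on all 3 in both BL and both ICM lists and on none in TE. On chromosome 19 from 21846001 to 21849000, all 3 bins had H3K27me3 and H3K9me3 in both 8C lists, neither afterwards, and were open in all 3 ICM libraries and in no BL or TE library. On chromosome 13 from 70044001 to 70046000, both bins were open in all 9 ATAC libraries. On chromosome 21 from 56572001 to 56576000, all 4 bins had H3K9me3 in every list of every group, alongside H3K27ac in the morula. On chromosome 22 from 57701001 to 57706000, all 5 bins had H3K27me3 and H3K9me3 in both TE lists, and in ICM H3K27me3 was on 0 and 5 and H3K9me3 on none. On chromosome 23 from 36261001 to 36266000, H3K27me3 was on all 5 bins in both BL and both TE lists and on 2 and 5 in ICM.

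The level of H3K27me3 at 8C also differed by chromosome, from 5.77% of the morula-only bins on chromosome 20 to 25.5% on chromosome 18. H3K9me3 at 8C ran from 8.40% on chromosome 9 to 30.3% on chromosome 18. Chromosomes 20 and 18 also lay near the ends of the range of morula-only bins as a share of morula H3K27ac, at 24.3% and 12.3%. Their part in the pooled values was not tested.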

How the data were processed

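One peak list per library, 81 in all, was deposited by the authors, and each was called on its own library. SICER, BWA 0.7.9a, SAMtools 1.9, Picard 2.26.10, cutadapt 1.8.3 and Trim Galore 0.4.0 are the tools, and ARS-UCD1.2 the build, per the submitters' processing notes. The deposited lists are named for another caller, epic2, so the caller was not settled. What cutoff, control or duplicate handling applied was not given in the sources used here. Each deposited peak carries a whole-number score, whose name the lists do not give, used only to rank peaks within a list. Peak edges lie on a grid of 50 bases for ATAC, H3K4me3 and H3K27ac and of 200 bases for H3K27me3 and H3K9me3. No read totals are given, so depth is unknown.

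From these lists, the covered bases of each 1 kb autosomal bin were summed in Python 3.11.15 with NumPy 2.4.6 and pandas 2.3.3, checked on simulated lists. Values are shares of bins per list with SD over lists, and no test was made. The regions named are the 10 longest runs of adjacent bins, with ties ordered by peak score, and the longest runs of states of at least 20 bins at MO, in ICM and in TE. Members, lists and comparisons were chosen with earlier results of these data known. Genes and sequences were not analysed here. Alternatives covered the bin limit, bin offset, list length, X, 8A and leaving out each library.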

Additional observations from a re-analysis of the deposited data

Results flagged for a closer look

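The rule for the morula-only sites used the autosomes alone, and the same rule was applied to the sequence outside them. On the X chromosome it gave 634 bins, which was 31.0% of the 2043 X bins marked in both morula H3K27ac lists. That share was above the 18.3% over all autosomes and above the highest single autosome, chromosome 20 at 24.3%. On the unplaced scaffolds it gave 32 bins, 12.6% of the 254 marked in both morula lists. The autosomal results do not use either of them.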

How the results depend on the processing

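No direction reversed under any alternative run for the results given in this section. The order against all bins was not among them, and at MO it changed with any covered base as the limit. H3K4me3 at MO was then 2.02% against 2.78% of all bins, and H3K9me3 at MO was 5.24% against 5.76%. The number of morula-only bins was 27779 with any covered base as the limit, 8783 at 80% of a bin, 9796 with no base in another H3K27ac list, 6088 with lists shortened to the shortest of their assay, and 7978 for morula peaks touching no other H3K27ac peak, an alternative chosen after seeing the data. In that order where a value moved, H3K27me3 at MO minus 8C was -9.85, -13.4 and -12.6 points (any base, 80%, no base). H3K9me3 was -8.98, -13.6 and -7.60 points (any base, 80%, shortened lists), and H3K4me3 was 4.30 with shortened lists. Bins open in all 3 ICM libraries were 9.34% with any base and 11.4% with shortened lists. For TE the values were 5.63% with any base, 1.73% at 80%, 2.08% with no base elsewhere, 5.67% with shortened lists and 2.18% for untouched peaks. Bins marked by nothing later were 58.0%, 65.1%, 67.0%, 55.2% and 67.3% in the order of the counts above.

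The SD of H3K27me3 in ICM and TE was so small that nearly every alternative exceeded it. The ICM share was 4.43% with any base, 5.07% at 80%, 5.06% with bins offset by 500 bases, 5.06% with no base elsewhere, 1.59% with shortened lists, 5.04% with X, 5.21% without use of 8A and 4.85% for untouched peaks. The TE share was 5.54%, 6.31%, 6.05%, 6.15%, 1.69%, 5.67%, 6.08% and 6.02% in that order. The cause of these shifts was not tested.

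Leaving out each library in turn gave 16115 to 29902 bins, and the counts over 1.5 times that reported came from the morula H3K27ac libraries (24171 without replicate 2, 29902 without replicate 1). H3K4me3 at MO minus 8C was 0.814 to 2.09 points, H3K27me3 -12.8 to -9.37 points, H3K9me3 -13.0 to -9.00, H3K27me3 4.47% to 5.16% in ICM and 5.55% to 6.09% in TE, and bins marked by nothing later 60.3% to 68.0%. No paired analysis was possible because the results come from no test, and nothing in the labels ties same-numbered libraries to one collection. Unknown depth limits every comparison of levels between lists.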
